A study of Homo sapiens with 4 samples.

Results

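Complex I (NADH:ubiquinone oxidoreductase) is the entry point of the mitochondrial respiratory chain. The genes described here are its nuclear-encoded subunits and the assembly factors that share their NDUF name. They were chosen by name: every protein-coding gene of GENCODE release 29 whose symbol starts with NDUFA, NDUFB, NDUFC, NDUFS or NDUFV. The rule found 48 of 58735 genes. Of these, 37 encode structural subunits and 8 encode the assembly factors NDUFAF1 to NDUFAF8. The other 3 carry the name without being subunits of the complex: NDUFA4, its paralog NDUFA4L2 and the read-through gene NDUFC2-KCTD14.

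Transcript levels were measured by RNA-seq of total RNA in 4 libraries labelled Huh7, a human liver cancer line. The shCtrl group (n = 2) carried a control short hairpin RNA and the shNME7 group (n = 2) a hairpin against NME7. The labels name a single cell line and give no dose, time or clone, nothing on how the hairpins were delivered, and no hairpin sequence. Nothing in them says that the replicates came from separate cultures; a p-value here therefore weighs the spread of these samples alone, and that spread may be technical. Where a gene has a pair of values per hairpin, replicate 1 comes before replicate 2.

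The labelled cell type was checked against its markers, which were at or near 0. All 10 liver cell markers examined stayed under 0.5 FPKM in every library, among them ALB, AFP, APOA1, APOB, TTR and HNF4A, and 3 of them were at 0 throughout. Their summed level ran from 0.148 to 0.434 FPKM. Of 6 fibroblast markers, 4 had a mean of at least 1 FPKM, led by COL3A1 at 76.6 FPKM in its highest library. The 2 others, COL1A2 and DCN, stayed under 0.5 FPKM in every library, so the fibroblast list was not uniform either. Its summed level, most of it COL3A1, ran from 92.1 to 103 FPKM in shCtrl and from 97.3 to 98.7 in shNME7. Of 6 leukocyte markers 0 reached a mean of 1 FPKM, and of 6 endothelial markers 1 did (CDH5). The libraries are therefore called by their hairpin and not by a cell type. The targeted gene stood at 3.64 and 3.93 FPKM with the control hairpin, against 0.835 and 0.626 with shNME7, and the groups did not overlap (log2 difference -1.47, SE 0.17, adjusted p 0.310 in limma-trend, and -2.39, adjusted p 0.000998, in limma-voom). Each library held between 14877906 and 16991397 fragments. The shCtrl 2 and shNME7 2 libraries stood apart for the genes described here, at the low and the high end. Differences without either are given below for part of the genes. Where none is given, the difference may also move without shCtrl 2 or shNME7 2.

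Complex I passes electrons from NADH to ubiquinone and pumps protons across the inner mitochondrial membrane. It is L-shaped. A peripheral arm in the matrix holds the flavin and the iron-sulfur clusters, and a membrane arm holds the proton channels. The core subunits of the peripheral arm are nuclear-encoded, those of the membrane arm are encoded by mitochondrial DNA, and accessory subunits from the nucleus surround both. Assembly factors help to build the complex and are not part of the finished enzyme.

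Promoters of nuclear respiratory genes are known for binding the factors NRF1, GABP and YY1. RefSeq windows of GRCh38.p14, from 250 bases before to 50 after the annotated start, were available for 40 of the 48 genes and searched on both strands for a core of each factor's motif. The 3 motifs were chosen after the sequences had been seen, and a match is a description of letters, not a bound site. The letters GCATGCGC (NRF1) occurred in the windows of 8 of the 40 genes (20%), against 3.68% of 27305 genes. AAGATGGCG (YY1) occurred in 7 of 40 (17.5%) against 2.14%, and CCGGAAG (GABP) in 7 of 40 (17.5%) against 12.2%. All 7 genes with the YY1 letters had them on the sense strand just after the start, beginning between base 10 and base 26. These letters hold ATGGCG, which in NDUFB8 are also the opening bases of the coding sequence shown further below. Whether the start codon accounts for the place or the share of the matches was not tested. The stretches below run from 60 bases before to 30 after the start. They are shown because the YY1 letters sit just after the start in subunit and assembly factor genes alike, because NDUFA8 and NDUFAF5 hold the NRF1 letters at the start itself, and because NDUFB8 and NDUFA2 had the largest differences among the tested genes on the log2(FPKM + 1) scale. In the 6 other genes the NRF1 letters began between base -166 and base 7, counted from the start. Capitals mark the match. In NDUFA8 and NDUFAF5 the forward and reverse matches overlap, so that 10 bases are marked.

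NDUFB8, chr10:100529842-100529931, minus strand: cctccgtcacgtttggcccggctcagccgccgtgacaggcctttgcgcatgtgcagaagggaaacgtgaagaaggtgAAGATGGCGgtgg
NDUFA9, chr12:4649054-4649143, plus strand: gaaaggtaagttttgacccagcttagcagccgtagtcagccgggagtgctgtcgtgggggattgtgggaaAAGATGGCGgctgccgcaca
NDUFS7, chr19:1383847-1383936, plus strand: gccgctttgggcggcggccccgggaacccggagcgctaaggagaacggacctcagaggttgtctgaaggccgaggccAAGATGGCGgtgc
NDUFAF8, chr17:81239251-81239340, plus strand: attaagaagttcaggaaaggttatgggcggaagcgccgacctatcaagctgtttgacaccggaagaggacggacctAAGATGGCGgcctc
NDUFA8, chr9:122159750-122159839, minus strand: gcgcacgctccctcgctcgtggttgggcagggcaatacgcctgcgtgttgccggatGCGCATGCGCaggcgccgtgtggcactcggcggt
NDUFAF5, chr20:13784968-13785057, plus strand: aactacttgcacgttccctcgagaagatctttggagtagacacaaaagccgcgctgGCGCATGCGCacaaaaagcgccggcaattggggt
NDUFA2, chr5:140647601-140647690, minus strand: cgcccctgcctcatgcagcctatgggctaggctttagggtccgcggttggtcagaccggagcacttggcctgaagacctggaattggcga

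The differences between the hairpins varied in size among the genes that carry the YY1 letters. Whether any of these letters go with the difference was not tested. On the log2(FPKM + 1) scale, shNME7 minus shCtrl was 0.75 for NDUFB8, 0.33 for NDUFA6, 0.24 for NDUFAF8, 0.19 for NDUFS7, 0.12 for NDUFA9 and -0.09 for NDUFS4, and NDUFA7 was too low to test. The NRF1 letters were found at genes between -0.11 (NDUFAF4) and 0.53 (NDUFS6). The NDUFA2 window held none of the 3 motifs, and its difference was 0.87.

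The subunit genes spanned a wide range of levels per length. FPKM counts fragments per kilobase of all annotated exons of a gene. For some genes these far exceed the coding bases (NDUFS7, 7533 against 937), so levels can be compared between genes only roughly. The highest was NDUFS5, an accessory subunit of the membrane arm, at 284 and 297 FPKM with the control hairpin, against 369 and 368 with shNME7. NDUFB7 and NDUFB11 followed, with means over the 4 libraries of 165 and 117 FPKM. At the low end stood NDUFA7, NDUFA13 and NDUFV2, with means of 0.522, 0.736 and 0.999 FPKM. NDUFV2 binds an iron-sulfur cluster and is a core subunit, so its mean of under 1 FPKM lies far from that of its partner NDUFV1, at 32.4 FPKM.

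**Figure D1:**
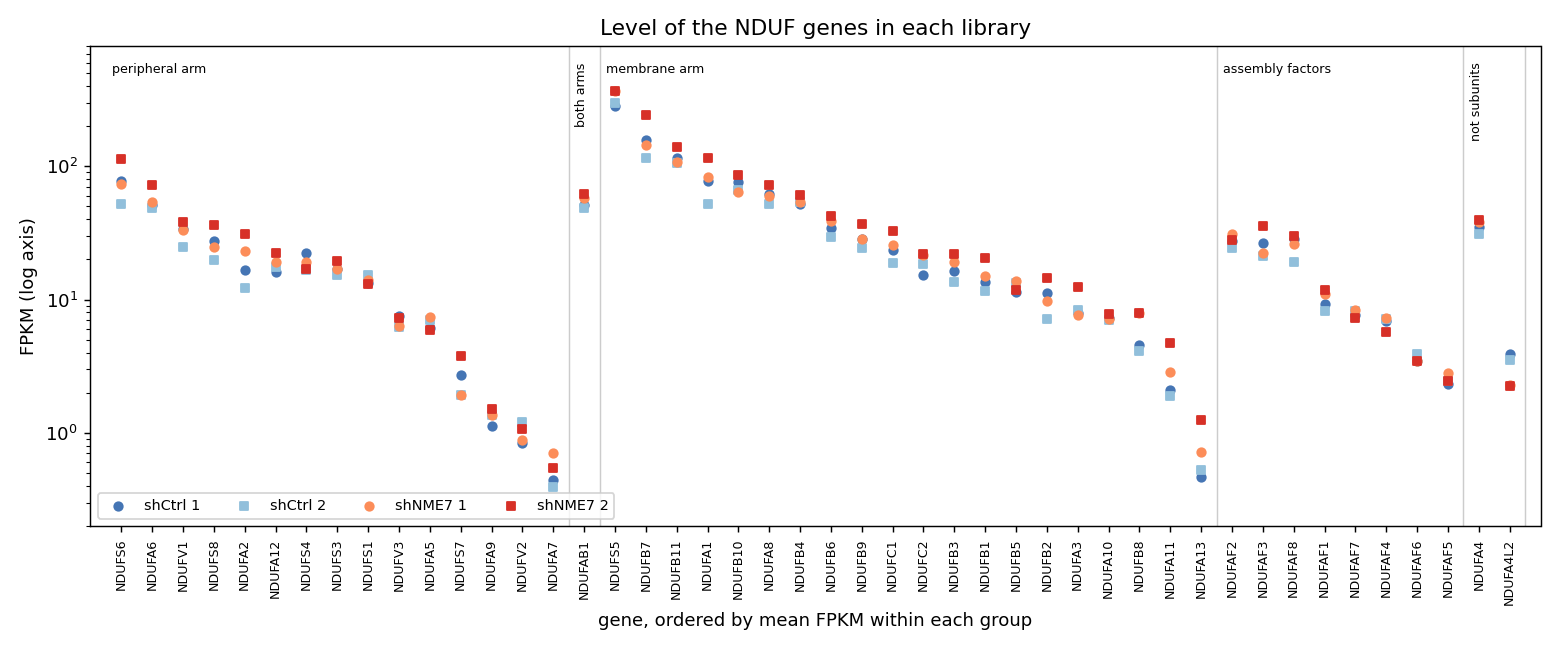
FPKM (vertical, log axis) of 46 NDUF genes in each of the 4 libraries, ordered by mean level within the peripheral arm, both arms, the membrane arm, the assembly factors and the genes that are not subunits; NDUFC2-KCTD14, at 0 in every library, is not drawn. Points of a gene lie close together beside the range between genes, from NDUFS5 at 284 to 369 FPKM down to NDUFA7 at 0.395 to 0.706.

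The low values went together with overlapping gene models. For 7 of the 37 subunit genes, over 10% of the coding bases lie in exons that GENCODE also gives to another gene on the same strand. They are NDUFB8 (85.2% of coding bases), NDUFV2 (84.7%), NDUFA7 (78.3%), NDUFC2 (76.9%), NDUFA9 (67.9%), NDUFA13 (55.2%) and NDUFA11 (36.9%). These 7 had a median level of 1.34 FPKM and 5 of them were under 3 FPKM. The 30 other subunit genes had a median of 26.1 FPKM and 1 was under 3 FPKM. That gene was NDUFS7, at 2.58 FPKM, for which 48.5% of the coding bases are shared with antisense genes. Most of the overlapping partners were themselves nearly empty. AL133352.1, which shares the exons of NDUFB8, had 0, 1, 0 and 0 fragments in shCtrl 1, shCtrl 2, shNME7 1 and shNME7 2. NDUFC2-KCTD14 and the partners of NDUFV2, NDUFA9 and NDUFA11 had 0 in every library, which allows up to 3 fragments each (counting error only). The partners of NDUFA13 were the exception. YJEFN3 had 24, 35, 36 and 61 fragments and AC011448.1 had 12, 6, 4 and 7, beside 20, 23, 29 and 57 for NDUFA13. How fragments in shared exons were assigned is not given in the sources used here, and its part in these levels was not tested. Genes on the opposite strand share 45.2% of the coding bases of NDUFB2, 17.0% of NDUFA2, 13.9% of NDUFAF3 and 10.9% of NDUFB9. Whether counting used strand is not known here, and without it reads of both genes cannot be told apart. Levels of the 7 genes and of NDUFS7, NDUFB2, NDUFA2, NDUFAF3 and NDUFB9 are therefore uncertain, and so are their differences, which rest on the counted part of each gene. These shares concern coding bases, whereas FPKM takes in all exons. Of the summed exon length, genes on either strand share 44.9% of NDUFB11, 44.5% of NDUFA1, 22.4% of NDUFS3, 19.8% of NDUFB3 and 18.5% of NDUFC1. For NDUFV1 and NDUFS1 this share also exceeds 10%. Levels and differences of these genes are uncertain for the same reason.

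**Figure D2:**
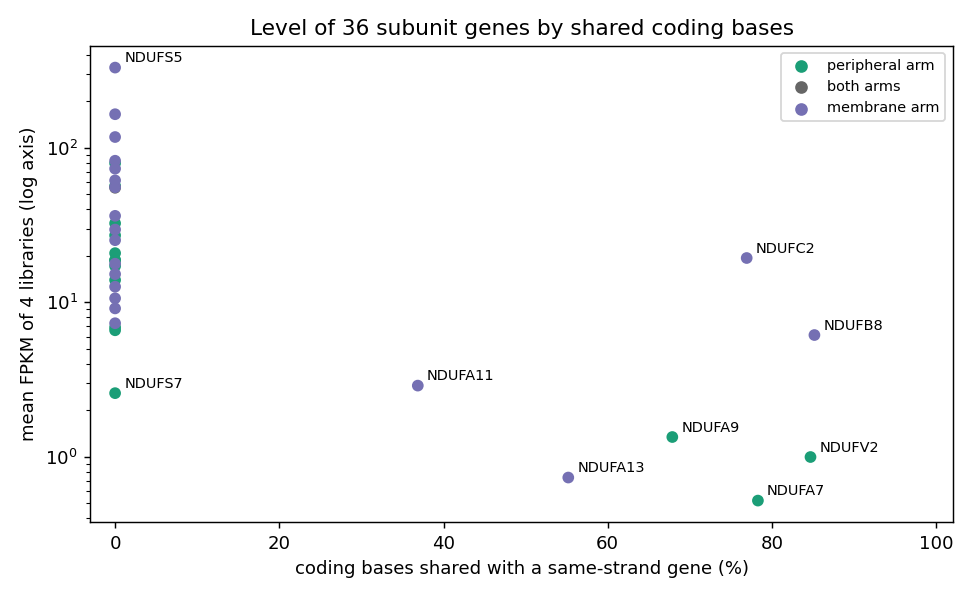
Mean FPKM over 4 libraries (vertical, log axis) of 36 of the 37 subunit genes against the share of their coding bases that lies in exons of another gene on the same strand (horizontal, percent). The 7 genes above 10% have a median of 1.34 FPKM, and most other genes lie far above it.

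NDUFB8 also has a transcribed processed pseudogene, NDUFB8P2. Of 59 NDUF pseudogenes, 3 had a mean of at least 1 FPKM, and NDUFB8P2 was the highest, at 14.5 and 13.4 FPKM with the control hairpin, against 28.7 and 10.6 with shNME7. Over 558 aligned columns it matched the NDUFB8 coding sequence at 87.1%, with 52 mismatches and 20 gap columns. The opening 90 coding bases of both, from GENCODE transcripts, show how close the copies are. Capitals mark their 8 differences, counted from the A of the start codon: G6A, G19A, T25C, C40A, G56A, C60A, A64G and C79A, with the NDUFB8 base given before the position.

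NDUFB8: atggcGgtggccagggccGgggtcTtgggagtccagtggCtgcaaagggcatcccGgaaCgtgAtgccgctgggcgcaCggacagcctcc
NDUFB8P2: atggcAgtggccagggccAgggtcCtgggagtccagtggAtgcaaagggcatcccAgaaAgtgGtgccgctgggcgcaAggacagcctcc

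The comparison of the hairpins asked what changes in these cells when NME7 is knocked down. Most subunit genes had a higher mean in shNME7, by small amounts, and no single gene passed the test. Of the 48 genes, 44 passed the filter of a mean of at least 1 FPKM, 34 of them structural subunits, 8 assembly factors, and NDUFA4 and NDUFA4L2. The mean was higher in shNME7 for 31 of the 34 subunit genes, where 52.2% of all 12866 tested genes were higher. The median log2 difference over the 34 was 0.28, against 0.01 over all tested genes. For 15 of the 34, or 44.1%, both shNME7 values exceeded both control values, against 17.8% of all tested genes, and for 0 of them both lay below, against 18.4%. Without shNME7 2 the median was 0.13 and 26 of the 34 were higher, and without shCtrl 2 the median was 0.19.

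Limma-trend, with p-values adjusted over all tested genes, called 0 of the 44 (0.0% of all tested genes were called). The smallest adjusted p was 0.471, for NDUFB8. With 1 library left out it called 1 member without shCtrl 1, 0 without shCtrl 2, 8 without shNME7 1 and 1 without shNME7 2, among 133, 112, 632 and 277 genes called in all. Limma-voom on recovered fragments called 0 of the 47 members it tested, against 0.106% of all genes. At an unadjusted p under 0.05, limma-trend had 9 members in either direction, against 6.68% of all tested genes. Of these 8 were higher, against 3.46%, and 1 was lower. Limma-voom had 11 of 47 in either direction, against 7.92%. The 44 genes had between 97 and 3422 fragments in each library.

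**Figure D3:**
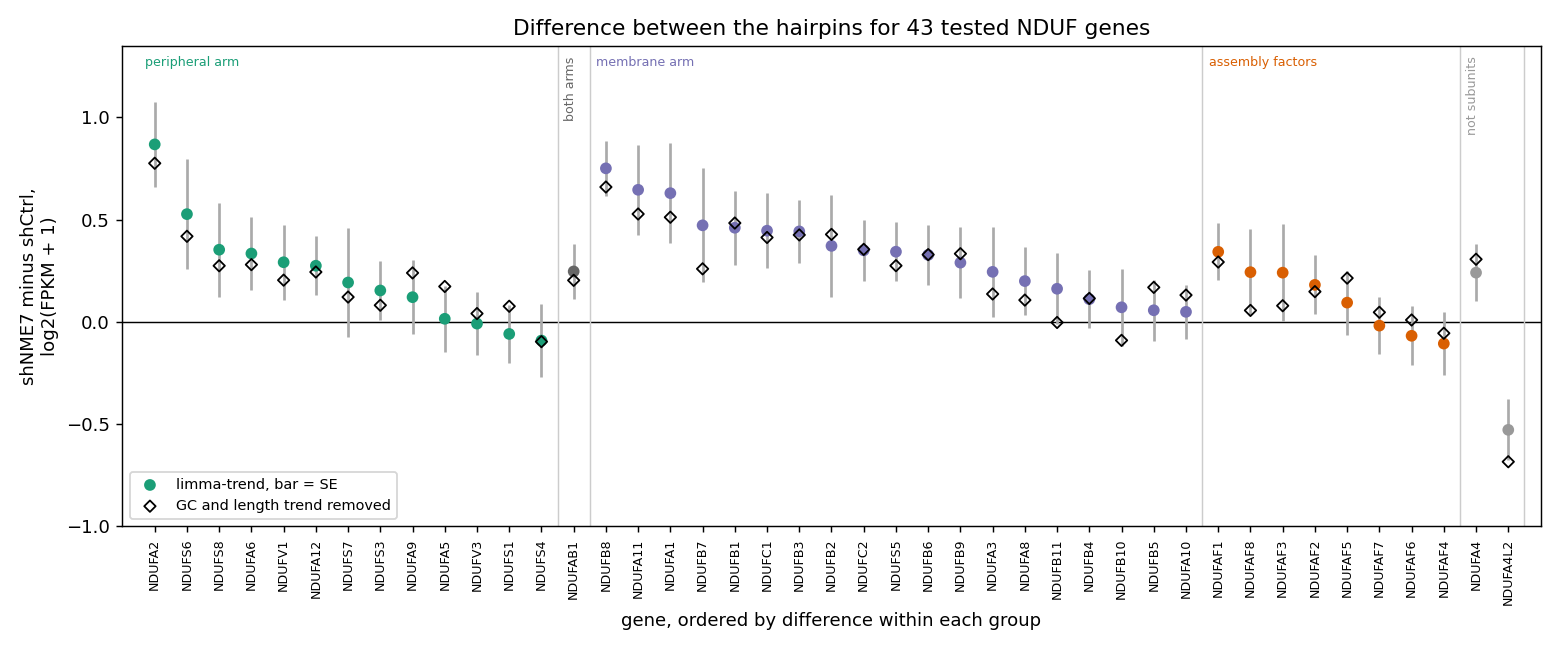
Difference between shNME7 and shCtrl (vertical, log2(FPKM + 1)) for 43 of the 44 tested genes, with limma's standard error as a bar; diamonds give the difference with the GC and length trend removed. All 19 tested membrane arm genes lie above 0 in limma-trend, the assembly factors lie between -0.11 and 0.34, and NDUFA4L2 stands at -0.53.

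The 7 core subunits carry the redox centres and the ubiquinone site, and 0 of their 6 tested genes passed, with differences from -0.06 to 0.35. NDUFV1, which binds NADH and the flavin, stood at 33.6 and 24.8 FPKM with the control hairpin, against 33.2 and 38.0 with shNME7. The shNME7 1 value lay between the shCtrl values, so the groups overlapped (log2 difference 0.29, SE 0.18, limma-trend adjusted p 0.816). The difference was 0.08 without shCtrl 2 and 0.50 without shCtrl 1. NDUFS1, the large iron-sulfur subunit, stood at 13.3 and 15.2 FPKM and at 14.1 and 13.2, with a difference of -0.06 that turned to 0.03 without shCtrl 2 and to 0.08 with the GC and length trend removed. Its groups overlapped.

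NDUFS3, a core subunit of the part of the arm that leads to ubiquinone, stood at 17.0 and 15.4 FPKM with the control hairpin, against 16.8 and 19.4 with shNME7. The iron-sulfur subunit gene NDUFS8 stood at 27.3 and 19.9 FPKM and at 25.0 and 36.1 (difference 0.35, SE 0.23, adjusted p 0.819), and its difference was 0.09 without shNME7 2 and 0.13 without shCtrl 2. NDUFS7, which carries the last cluster before ubiquinone, stood at 2.70 and 1.91 FPKM and at 1.93 and 3.79. The difference for NDUFS3, 0.15, was 0.06 without shNME7 2 and 0.09 without shCtrl 2. In all 3 genes the shNME7 1 library lay within the shCtrl range and shNME7 2 was the highest, and for NDUFS7 the sign turned without shNME7 2, to -0.16. NDUFV2 did not pass the filter, with 36, 53, 36 and 49 fragments in shCtrl 1, shCtrl 2, shNME7 1 and shNME7 2.

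Among the accessory subunits of the peripheral arm, NDUFA2 had the largest difference of the tested NDUF genes on the log2(FPKM + 1) scale. The ratio of mean FPKM was higher for NDUFA13 (1.97, not tested in limma-trend) and NDUFA11 (1.89), both low in level. NDUFA2 has a thioredoxin-like fold and belongs to the NADH-binding part of the arm (ENSG00000131495, chromosome 5, 140638740 to 140647785 on GRCh38). It stood at 16.6 and 12.2 FPKM with the control hairpin, against 23.1 and 31.2 with shNME7, from 394, 293, 517 and 788 fragments, a count made uncertain by the genes on the opposite strand. Both shNME7 values were above both shCtrl values, but the values within each group were also far apart. The means were 14.4 ± 3.13 and 27.1 ± 5.70 FPKM (SD, n = 2), 1.88-fold higher in shNME7, with a log2 difference of 0.87 (SE 0.21). It did not pass (limma-trend adjusted p 0.584, limma-voom adjusted p 0.190). Over the alternatives its difference ran from 0.66 to 1.08, and its adjusted p from 5.04e-05 without shNME7 1 to 0.805, with 0.0304 without shCtrl 1. Without 1 library the lone sample of a group is assumed to vary like the other group.

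NDUFS6, a zinc-binding subunit, stood at 77.5 and 51.9 FPKM with the control hairpin, against 74.2 and 114 with shNME7 (difference 0.53, SE 0.27). Its groups overlapped, and shNME7 2 alone stood clear of shCtrl 1. Its difference was 0.22 without shNME7 2 and 0.24 without shCtrl 2, and without shNME7 1 it was 0.83 and passed in limma-trend (adjusted p 0.0120). NDUFV3 and NDUFA5 had the smallest differences of the well-measured accessory genes. NDUFV3, bound to the flavoprotein part, stood at 7.59 and 6.24 FPKM and at 6.39 and 7.31, a difference of -0.01. NDUFA5, an accessory subunit at the base of the arm, stood at 6.09 and 6.99 FPKM and at 7.41 and 5.88, a difference of 0.01. Both signs turned under other settings. The other tested genes of this arm ran from -0.09 (NDUFS4) to 0.33 (NDUFA6), and NDUFA7, untested, had 10, 9, 15 and 13 fragments. Over the 14 tested peripheral arm genes the median was 0.17, and 4 (28.6%, against 17.8% of all tested genes) had both shNME7 values above both control values. The median was 0.11 without shNME7 2 and also without shCtrl 2.

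All 19 tested membrane arm genes had a higher mean in shNME7, where 52.2% of all tested genes did. Without shNME7 2 it was 15 of 19, NDUFB10, NDUFB11, NDUFA3 and NDUFA10 being the exceptions, and 18 of 19 without each of the other libraries in turn. For 10 (52.6%, against 17.8% of all tested genes) both shNME7 values exceeded both control values. With the GC and length trend removed 17 of the 19 stayed higher, the others being NDUFB10 and NDUFB11. Of the 12857 tested genes with a GC value, 7145 were higher in that setting. Their median log2 difference was 0.34, 0.33 with that trend removed and 0.16 without shNME7 2. At an unadjusted p under 0.05, limma-trend had 6 of the 19 higher, against 3.46% of all tested genes, and it called 0 after adjustment.

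NDUFB8 is an accessory subunit whose protein is widely used as a marker of assembled complex I (ENSG00000166136, chromosome 10, 100523740 to 100530000 on GRCh38). It stood at 4.53 and 4.12 FPKM with the control hairpin, against 7.99 and 7.92 with shNME7. The groups were clearly apart and the replicates close together. The fragments behind these values numbered 144, 133, 240 and 269, and those of NDUFB8P2 124, 116, 232 and 97. Summed over both copies they were 268 and 249 against 472 and 366, so the order of the groups was the same. The difference was 0.75 (SE 0.13, limma-trend adjusted p 0.471, limma-voom adjusted p 0.229) and ran from 0.66 to 0.88 over the alternatives. With single libraries left out the difference ran from 0.70 to 0.81.

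NDUFA1, an accessory subunit needed for assembly of the complex, stood at 77.1 and 52.1 FPKM with the control hairpin, against 83.8 and 116 with shNME7 (difference 0.63, SE 0.24, adjusted p 0.730). Its shNME7 1 value was only slightly above shCtrl 1. The accessory gene NDUFB7 stood at 157 and 115 FPKM and at 144 and 242, with overlapping groups (difference 0.47, SE 0.28). The shNME7 2 library was the highest for both genes. Without it the difference was 0.40 for NDUFA1 and 0.10 for NDUFB7, and without shCtrl 2 it was 0.35 and 0.25. Without shNME7 1 both passed in limma-trend (adjusted p 0.00796 and 0.0175).

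NDUFB1 stood at 13.5 and 11.7 FPKM with the control hairpin, against 15.1 and 20.5 with shNME7. NDUFB3 stood at 16.3 and 13.5 and at 19.2 and 21.9 FPKM, and NDUFC1 at 23.7 and 18.7 and at 25.8 and 32.6 FPKM. These 3 small accessory subunit genes had non-overlapping groups in the same order of libraries, with shCtrl 2 the lowest and shNME7 2 the highest, and differences of 0.46 (NDUFB1), 0.44 (NDUFB3) and 0.45 (NDUFC1). NDUFB1 passed without shNME7 1 (limma-trend adjusted p 0.0345) and stood at 0.25 without shNME7 2. NDUFC1 stood at 0.28 without shNME7 2 and also without shCtrl 2. NDUFA10, by contrast, stood at 7.32 and 7.04 FPKM and at 7.16 and 7.76, a difference of 0.05 with overlapping groups.

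The remaining membrane arm genes filled the range between. NDUFA11, with the uncertain count described above, stood at 2.10 and 1.90 FPKM with the control hairpin, against 2.85 and 4.72 with shNME7 (difference 0.65). NDUFB2, NDUFC2, NDUFS5, NDUFB6 and NDUFB9 ran from 0.37 down to 0.29, NDUFA3, NDUFA8, NDUFB11 and NDUFB4 from 0.24 to 0.11, and NDUFB10 and NDUFB5 stood at 0.07 and 0.06. NDUFA13 did not pass the filter and had 20 and 23 fragments in shCtrl and 29 and 57 in shNME7. NDUFAB1, the mitochondrial acyl carrier protein, occurs in both arms and stood at 51.6 and 48.9 FPKM and at 57.6 and 62.0, a difference of 0.25.

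The assembly factor genes had a lower median level than the subunit genes and a smaller median difference between the hairpins, a contrast that was not tested. All 8 were tested, with a median level of 8.99 FPKM against 20.1 for the 34 subunit genes. Their median log2 difference was 0.14, and 5 were higher and 3 lower in shNME7. For 2 of 8 (25%, against 17.8% of all tested genes) both shNME7 values exceeded both control values, NDUFAF1 and NDUFAF2. With the GC and length trend removed the median was 0.07, without shCtrl 2 it was 0.05 and without shNME7 1 it was 0.06. With that trend removed 7 of the 8 were higher, where 7145 of the 12857 tested genes with a GC value were.

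NDUFAF1, a factor of membrane arm assembly, stood at 9.34 and 8.24 FPKM with the control hairpin, against 10.9 and 11.9 with shNME7 (difference 0.34, SE 0.14, adjusted p 0.745). NDUFAF2, a paralog of the subunit NDUFA12 that acts late in assembly, stood at 27.6 and 24.4 FPKM and at 31.2 and 27.9, with shNME7 2 barely above shCtrl 1 (difference 0.18, and 0.10 without shCtrl 2 or without shNME7 1). NDUFAF3 and NDUFAF4 act together on an early intermediate, and their genes did not move alike. NDUFAF3 stood at 26.6 and 21.1 FPKM and at 22.4 and 35.4, and NDUFAF4 at 6.93 and 7.13 and at 7.23 and 5.75. The shNME7 2 library was the highest of the 4 for NDUFAF3 and the lowest for NDUFAF4, and leaving it out turned the sign of both, to -0.08 and 0.04.

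NDUFAF5 and NDUFAF7 resemble methyltransferases, and NDUFAF5 hydroxylates the core subunit NDUFS7. NDUFAF5 stood at 2.32 and 2.45 FPKM with the control hairpin, against 2.79 and 2.43 with shNME7, and NDUFAF7 at 7.71 and 8.15 and at 8.33 and 7.32. NDUFAF6 stood at 3.45 and 3.90 FPKM and at 3.47 and 3.44. All 3 had overlapping groups and differences between -0.07 and 0.09. NDUFAF8, a partner of NDUFAF5, stood at 28.7 and 19.2 FPKM and at 26.0 and 30.1 (difference 0.24, SE 0.21), and the difference turned to -0.03 without shCtrl 2.

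NDUFA4 is now placed in complex IV (cytochrome c oxidase), and NDUFA4L2 is a paralog known as a hypoxia-inducible gene. NDUFA4 stood at 34.9 and 31.1 FPKM with the control hairpin, against 38.4 and 39.8 with shNME7, a difference of 0.24. Without shCtrl 2 the difference was 0.16. NDUFA4L2 went the other way, at 3.92 and 3.54 FPKM with the control hairpin, against 2.30 and 2.25 with shNME7. Its groups did not overlap and its replicates lay close together. It was the 1 tested NDUF gene with both shNME7 libraries below both shCtrl libraries (difference -0.53, SE 0.15, limma-trend adjusted p 0.687, limma-voom adjusted p 0.494). The difference ran from -0.91 to -0.47 over the alternatives.

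The contrast between subunits and assembly factors rested on a single library. Each gene's log2(FPKM + 1) was set against its mean over the 4 libraries, and the median was taken over the genes of a list. For the 34 subunit genes it stood at -0.06 and -0.18 for the control hairpin, against 0.02 and 0.25 for shNME7. The shNME7 2 library was the highest of the 4 for 27 of the 34 genes, and shCtrl 2 the lowest for 24. For the 8 assembly factor genes the medians were -0.02 and -0.10 for the control hairpin, against 0.08 and -0.01 for shNME7. The subunit median minus the assembly factor median was -0.04, -0.08 and -0.06 in shCtrl 1, shCtrl 2 and shNME7 1, and 0.25 in shNME7 2. Between the hairpins the subunits' median difference exceeded that of the assembly factors by 0.14, by 0.03 without shNME7 2 and by 0.32 without shNME7 1. No test of this contrast was made, since genes are not replicates.

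**Figure D4:**
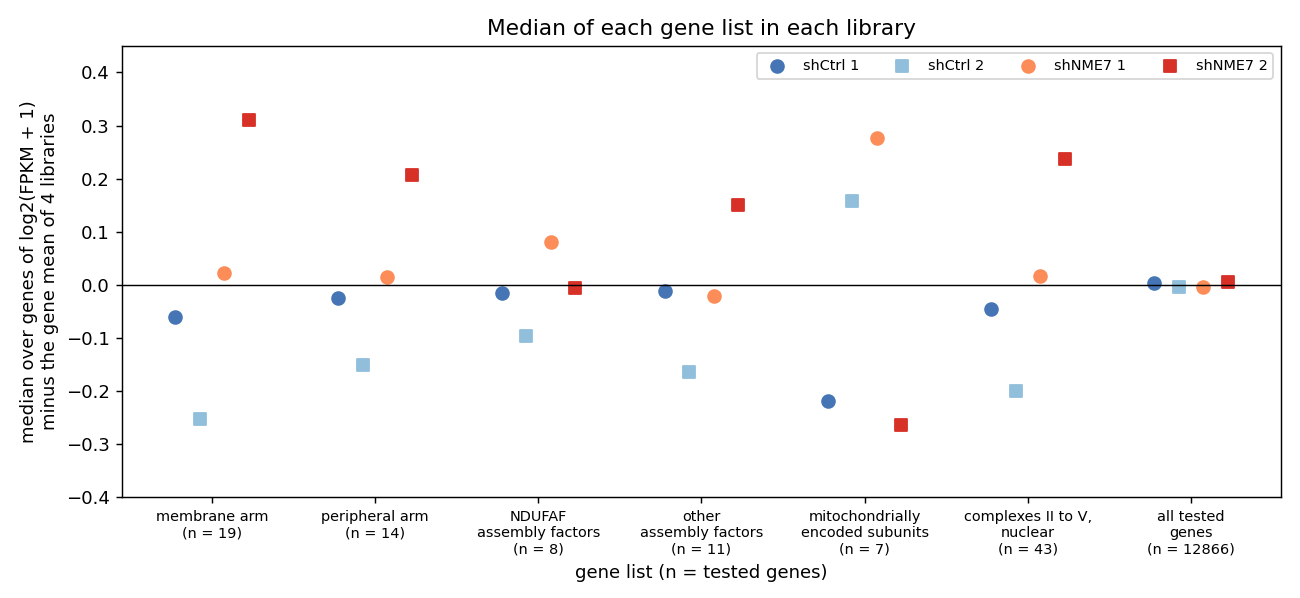
Median over the genes of each list of log2(FPKM + 1) minus the gene's mean over 4 libraries (vertical), for each library; n is the number of tested genes. The membrane arm runs from -0.25 in shCtrl 2 to 0.31 in shNME7 2, while the mitochondrially encoded subunits are high in shCtrl 2 (0.16) and shNME7 1 (0.28) and low in the other libraries.

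The subunits that mitochondrial DNA encodes showed another order of libraries. Their 7 genes, MT-ND1 to MT-ND6 and MT-ND4L, form the core of the membrane arm. The list median stood at -0.22 and 0.16 for the control hairpin, against 0.28 and -0.26 for shNME7. The library lowest in nuclear subunit genes, shCtrl 2, was thus high in mitochondrial ones, and shNME7 2 was the reverse. MT-ND6, encoded on the strand opposite to the others, stood at 852 and 1063 FPKM with the control hairpin, against 1572 and 1007 with shNME7. MT-ND3 stood at 1440 and 1662 FPKM and at 2092 and 1779, the 1 gene of the 7 with non-overlapping groups. This is 14.3% with both shNME7 values above both control values, against 17.8% of all tested genes. MT-ND5 stood at 896 and 1194 FPKM and at 1402 and 1068. The median log2 difference over the 7 was 0.00, with 3 higher and 4 lower. Of all fragments, 4.76% and 5.92% were mitochondrial in shCtrl and 6.59% and 4.24% in shNME7.

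GC content and exon length were examined because differences between these libraries followed both. Over the 12857 tested genes with a GC value, the log2 difference had a Spearman rho of 0.41 with GC content and -0.27 with summed exon length. Genes are not independent replicates, so no p is given. Over the 42 tested subunit and assembly factor genes, which share the 4 libraries, the values were 0.41 and -0.40. Subunit genes are short, with a median summed exon length of 2131 bases against 4392 over all tested genes, and their median GC content was 48.3% against 48.1%. Assembly factor genes had medians of 2487 bases and 45.5%.

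Within the subunits the 8 genes of 5000 bases and over had a median difference of 0.05. They include NDUFS1, NDUFA10, NDUFA5 and NDUFV3. The 17 genes under 2000 bases had a median of 0.33 and the 9 genes from 2000 to under 5000 bases 0.35. Both shNME7 values exceeded both control values for 0 of the 8, 10 of the 17 and 5 of the 9. Over all tested genes of any length that share was 17.8%, and it is not given here by length. Over all tested genes the medians of these classes were -0.04, 0.12 and 0.05 in the same order. When a trend on both properties was removed from each library, the subunit median was 0.24, against 0.02 over all tested genes. The mean in shNME7 was then higher for 31 of 34 subunit genes and for 7 of the 8 NDUFAF genes. Over the 12857 tested genes with a GC value it was higher for 7145. The medians of the 3 length classes then stood at 0.15, 0.27 and 0.33.

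**Figure D5:**
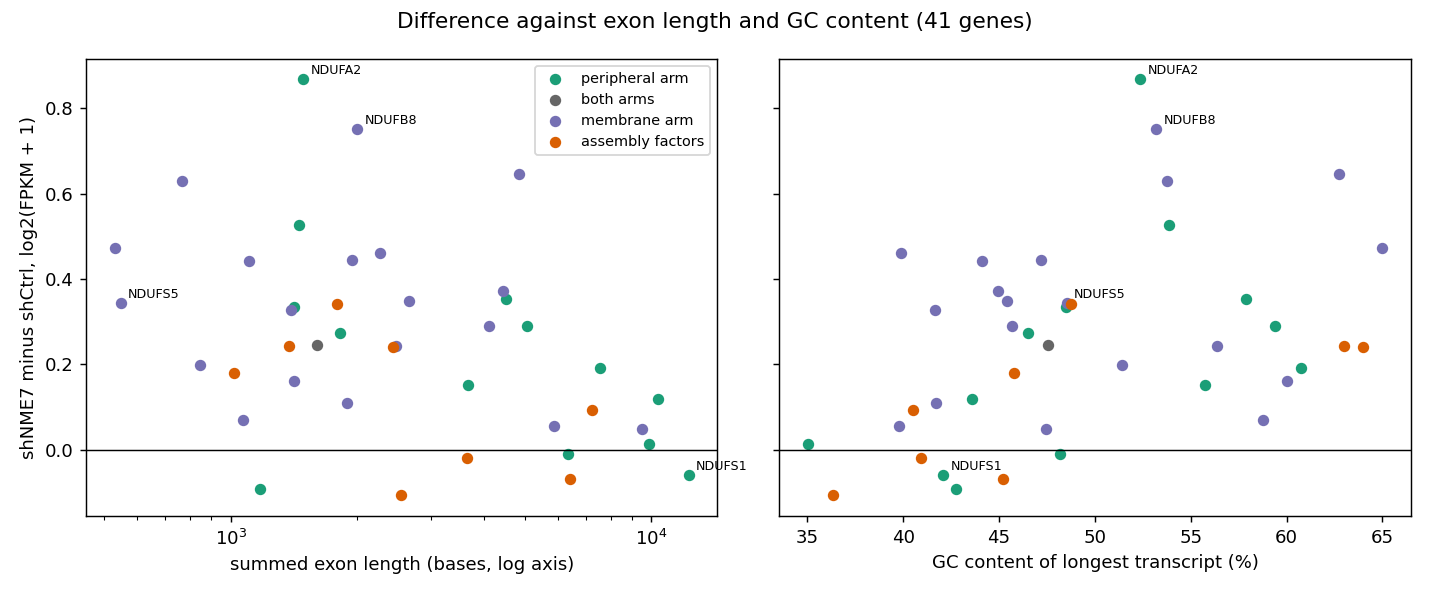
Log2 difference between shNME7 and shCtrl (vertical) of 41 of the 42 tested subunit and assembly factor genes against summed exon length (left, bases, log axis) and GC content of the longest transcript (right, percent). The longest genes lie near 0 (NDUFS1 at -0.06), and the Spearman rho over all 42 is -0.40 with length and 0.41 with GC content.

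Assembly factors without an NDUF name had a median difference of 0.13, against 0.14 for the NDUFAF genes, and 0.14 against 0.07 with the GC and length trend removed. All 11 were tested, and 10 had a higher mean in shNME7, where 52.2% of all tested genes did. For 4 (36.4%, against 17.8%) both shNME7 values exceeded both control values. The list median by library was -0.01 and -0.16 for the control hairpin, against -0.02 and 0.15 for shNME7, so that shNME7 2 was the highest, as for the subunits. TMEM186, a membrane arm assembly protein, stood at 5.97 and 5.64 FPKM with the control hairpin, against 7.80 and 8.10 with shNME7 (difference 0.40, SE 0.13, adjusted p 0.728). DMAC1, of the distal membrane arm, stood at 18.4 and 13.9 FPKM and at 19.1 and 24.4, and FOXRED1 at 13.1 and 10.9 and at 11.96 and 16.5. Of these only FOXRED1 had overlapping groups. Limma-trend and limma-voom called 0 of the 11.

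Nuclear-encoded genes of complexes II to V had a median difference of 0.27 over 43 tested genes, and 26 of them (60.5%) had both shNME7 values above both control values. Cytosolic ribosomal protein genes had a median of 0.20 over 83 genes, 42.2% of them with such groups, and mitochondrial ribosomal protein genes 0.16 over 76, with 36.8%. Over all tested genes the median was 0.01, and 17.8% had such groups. All 3 lists had shCtrl 2 as the lowest and shNME7 2 as the highest library, as the complex I subunits did. Whether complex I differed from these lists was not tested.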

How the data were processed

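Members and lists were chosen with earlier results of these data known. The authors deposited 1 table per library with FPKM values, per the file headers. HISAT2 2.0.5 and the build hg18 are named, per the submitters' processing notes. Neither counting tool nor annotation is given in the sources used here. GENCODE release 29 (GRCh38) holds all 58735 gene IDs and gave names, coordinates and exon lengths. FPKM times exon length gave whole fragments (within 0.01) for 100% of values above 0.

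The test was limma-trend (limma 3.58.1, R 4.3.3) on log2(FPKM + 1) with a group term, two-sided, over the 12866 genes with a mean of at least 1 FPKM, Benjamini-Hochberg adjusted at 0.05. This scale understates changes of low genes. Alternatives were a pseudocount of 0.1, no filter, TPM scaling, a replicate block, single libraries left out, limma-voom on fragments (mean of at least 10) and a loess trend on GC content and length removed (span 0.3). Both tests were run on simulated counts, which held no GC or length trend and so do not show how the tests behave with one. Values in every library are given for the core subunits (1 member is counted in the lists but not reported here), the NDUFAF genes, NDUFA4, NDUFA4L2, the 8 accessory genes with the largest and 3 with the smallest difference at a mean of at least 5 FPKM, and up to 3 genes of each other list. Others were chosen after their values were seen.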

Additional observations from a re-analysis of the deposited data

How the results depend on the processing

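The count of called members, 0 of 44, was also 0 under every alternative that kept all 4 libraries, and ran from 0 to 8 with single libraries left out. The 8 came without shNME7 1, where limma-trend called 632 genes in all (limma-voom 5 members of 421 genes); without shCtrl 1 and without shNME7 2 it was 1. The number with both shNME7 libraries above both shCtrl, 18, ran from 22 to 34 with single libraries left out, when fewer libraries need to be clear of each other and 28.3% to 41.1% of all genes qualify. It was 26 of 44 with the GC and length trend removed and 16 of 44 with TPM scaling. The share over all genes in these 2 settings is not given here. It was 10 of 28 when members with over 10% shared exon length were left out, and 15 of 40 without the 4 tested genes that share over 10% of their coding bases on the same strand, an alternative chosen after seeing the data. The subunit median, 0.28, ran from 0.13 (without shNME7 2) to 0.38 (without shNME7 1). The assembly factor median, 0.14, ran from 0.048 to 0.17 over single libraries left out and was 0.067 with the GC and length trend removed, also with the replicate block, and 0.062 in limma-voom with that trend removed. Subunit minus assembly factor medians, 0.14, ran from 0.029 to 0.32 over single libraries left out, the latter without shNME7 1. With TPM scaling the median of all tested genes was -0.03, that of the subunits 0.24.

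Of 27 named members 17 kept their sign under all 12 alternatives, and 26 of 324 values changed sign. With the GC and length trend removed, alone and with the replicate block, NDUFS1 stood at 0.076, NDUFAF6 at 0.0084, NDUFAF7 at 0.046 and NDUFV3 at 0.040. In limma-voom with that trend removed they stood at 0.11, 0.0096, 0.071 and 0.050. NDUFA5 was -0.034 with TPM scaling. With single libraries left out NDUFS1 ran from -0.15 to 0.032, NDUFS7 from -0.16 to 0.55, NDUFAF3 from -0.079 to 0.56, NDUFAF4 from -0.25 to 0.036, NDUFAF6 from -0.14 to 4.09e-05, NDUFAF7 from -0.10 to 0.063, NDUFAF8 from -0.034 to 0.52, NDUFV3 from -0.13 to 0.11, NDUFA5 from -0.13 to 0.16 and NDUFA10 from -0.0033 to 0.10. The cause was not tested. The counts and medians of the membrane and peripheral arm genes with single libraries left out were added after seeing the data.

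The labels do not say whether replicate numbers pair the samples. The deviations of same-numbered libraries correlated at -0.35 across genes, which cannot settle it. With the replicate block limma-trend called 122 genes, 0 of them members, and with the pairing crossed, chosen after seeing the data, 0 genes. The count of members with both shNME7 values above was 20 of 47 in limma-voom, and has no value under the pseudocount or the block, which do not enter it.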

Other observations

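Genes that act before or above complex I were also measured. Of 10 regulators of respiratory genes 3 had a higher mean in shNME7 and 7 a lower one, and for 5 both shNME7 values were under both control values, against 18.4% of all tested genes. The median log2 difference was -0.12, and -0.07 with the GC and length trend removed. PPARGC1A, the coactivator of mitochondrial biogenesis, chosen after its values were seen, stood at 2.21 and 2.50 FPKM with the control hairpin, against 1.44 and 1.34 with shNME7 (limma-trend adjusted p 0.728, limma-voom adjusted p 0.262). TFAM, which packages mitochondrial DNA and acts in its transcription, stood at 19.1 and 20.6 FPKM and at 18.4 and 15.1. GABPA, the DNA-binding subunit of GABP, stood at 9.17 and 10.1 FPKM and at 9.13 and 6.86. The nuclear receptor gene ESRRA stood at 44.3 and 30.4 FPKM and at 36.1 and 55.6, with shNME7 2 the highest. Limma-trend called 0 of the 10, with 1 at an unadjusted p under 0.05, and limma-voom called 0.

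Complex I carries iron-sulfur clusters, and 13 of 14 genes of mitochondrial cluster assembly were tested. Of these 7 had a higher and 6 a lower mean in shNME7, with a median difference of 0.07. FDXR, the ferredoxin reductase gene, stood at 8.29 and 6.99 FPKM with the control hairpin, against 8.56 and 11.1 with shNME7. HSCB, a cochaperone of cluster transfer, stood at 10.4 and 7.85 FPKM and at 8.37 and 6.73, and GLRX5 at 21.8 and 17.6 and at 20.7 and 25.6. Limma-trend and limma-voom called 0 of the 13, and 0 had an unadjusted p under 0.05 in either.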
